A study of Mus musculus with 18 samples.

Results

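The 4 inhibitor of DNA binding genes (Id1, Id2, Id3 and Id4) and 5 genes of bone morphogenetic protein (BMP) signalling (the ligands Bmp4 and Bmp7, the receptor Bmpr1a and the inhibitory Smads Smad6 and Smad7) were followed through RNA sequencing of mouse oligodendrocyte progenitor cells (OPCs). They were taken by symbol and make up 9 of the 54279 rows of each deposited table. The cells were derived from epiblast stem cells and grown with Fgf2 and Pdgfa, so all groups shared that origin and both growth factors. Control cells carried a CRISPR control and Vhl cells a CRISPR edit of Vhl, called a knockout in the study design, the gene of the protein that targets hypoxia-inducible factor for breakdown. The sources used here give neither the guides and the bases edited nor whether a line was a single clone. A first experiment held 3 libraries of control and 3 of Vhl cells with no drug. A second held 3 libraries each of control cells in DMSO, Vhl cells in DMSO, control cells in 300 nM AZD8330 and Vhl cells in 300 nM AZD8330, with treatment lasting 14 h. AZD8330 blocks MEK, the kinase that activates ERK downstream of growth factor receptors. Libraries A to C of a group are not labelled as separate cultures, and every p-value therefore measures only the spread between these samples, which may be technical.

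BMP ligands bind pairs of type I and type II receptors, and the type I receptor then phosphorylates Smad proteins that enter the nucleus with Smad4. Id genes are among the best known direct targets of that signal. Their products lack a DNA binding domain and hold basic helix-loop-helix (bHLH) factors in inactive pairs, and in the oligodendrocyte lineage BMP signalling and Id2 and Id4 are known for restraining differentiation and, for BMP, for favouring astrocytes. Smad6 and Smad7 are themselves BMP or TGF-beta targets that block receptors and receptor Smads.

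The letters just before the start sites differ between these genes. These windows are shown because Id2 and Id4 lay higher in Vhl than in control cells in DMSO and Smad6 lower. Id3 lay lower there too, but all 250 bases of its window are in annotated exons, so none of them is printed. The sequences come from RefSeq on GRCm38.p6, run 5′ to 3′ along the gene and leave out every base in an annotated exon. Windows of 6 of the 9 genes were searched. Those of Id1, Bmp7 and Smad7 were not, so the matches below say nothing about these genes. Capitals mark GGCGCC, a GC element known from Smad-bound enhancers, or ACGTG or GCGTG, the core that hypoxia-inducible factor binds. The Id2 stretch is chr12:25096254-25096342 on the minus strand, in an intron of the longest annotated Id2 transcript. Both other stretches lie upstream of their genes, the Id4 stretch at chr13:48260866-48261115 on the plus strand and the Smad6 stretch at chr9:64022060-64022309 on the minus strand.
Id2: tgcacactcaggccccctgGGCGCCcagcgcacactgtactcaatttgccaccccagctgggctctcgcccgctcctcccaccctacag
Id4: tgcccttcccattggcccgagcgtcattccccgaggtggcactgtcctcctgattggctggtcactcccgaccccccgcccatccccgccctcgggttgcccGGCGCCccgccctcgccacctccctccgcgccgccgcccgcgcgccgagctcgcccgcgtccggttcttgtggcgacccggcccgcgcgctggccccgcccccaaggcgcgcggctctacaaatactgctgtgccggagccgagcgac
Smad6: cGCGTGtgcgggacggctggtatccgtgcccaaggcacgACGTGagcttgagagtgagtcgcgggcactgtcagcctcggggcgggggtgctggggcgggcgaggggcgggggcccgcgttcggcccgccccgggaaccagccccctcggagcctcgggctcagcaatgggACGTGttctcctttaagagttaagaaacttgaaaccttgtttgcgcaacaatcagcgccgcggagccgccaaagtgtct
Windows of 250 bases before each start were searched on both strands. GGCGCC, which reads the same on both strands, began 231 bases before the Id2 start and 148 bases before the Id4 start, and it also began 198 bases before the start of Bmpr1a, which passed the test in no comparison. It was not among the letters of the Id3, Bmp4 and Smad6 windows. ACGTG or GCGTG began 249, 211 and 79 bases before the Smad6 start, 8 bases before the Id3 start and, in 2 overlapping matches, 188 and 187 bases before the start of Bmp4, which was near 0 in these cells. It was not among the letters of the Id2, Id4 and Bmpr1a windows. Of 32851 windows of that length taken as background, 9.59% held GGCGCC and 38.6% held ACGTG or GCGTG. The windows of the genes searched were 62.8% to 78.8% G or C, and these shares were not matched for base content. These matches are descriptions of letters, and no binding was measured here.

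In the GENCODE M21 annotation of GRCm38, Id1 lies at chr2:152736251-152737410 on the plus strand, Id2 at chr12:25093799-25097140 on the minus strand, Id3 at chr4:136143497-136145755 on the plus strand and Id4 at chr13:48261228-48266026 on the plus strand. Bmp4 lies at chr14:46383520-46390669, Bmp7 at chr2:172868012-172940321, Bmpr1a at chr14:34410734-34503341 and Smad6 at chr9:63953076-64022059, all on the minus strand, and Smad7 lies at chr18:75367529-75395935 on the plus strand. All 9 are protein-coding genes with a single value per library. Stretches of 31 bases shared with another gene's transcripts made up 4.08% of the Bmpr1a transcripts and a smaller share of those of each of the other 8 genes. The estimated counts of Bmpr1a were not whole in any library, and how shared reads were assigned was not tested.

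Untreated libraries held 14594148 to 21160250 estimated counts and those of the drug experiment 12391077 to 16349676. Levels are TMM-scaled CPM, the share of a library's counts scaled to a common total, given as mean ± SD over n = 3 libraries. The edited gene was still counted: Vhl stood at 102 to 139 CPM in control and 89.8 to 104 CPM in Vhl libraries of the drug experiment, and at 117 to 125 CPM against 73.9 to 89.9 CPM untreated, and the labels do not say which bases the edit removed. Of the 7 OPC markers, Olig2 was at 814.5 CPM or more in every library, and the 7 markers together summed to 7920 to 12930 CPM. Of the 7, 5 rose and 1 fell in Vhl against control cells in DMSO, where 13.8% of all rows rose and 18.5% fell. The counts were the same with AZD8330, where 16.0% of all rows rose and 14.0% fell. The one that fell was Sox10, at 47.8 to 55.3 CPM in control and 15.5 to 20.2 CPM in Vhl cells in DMSO (log2 change -1.53 ± 0.103, adjusted p = 2.4e-07 in edgeR) and at 95.0 to 99.9 against 27.2 to 34.7 CPM with the drug (log2 change -1.65 ± 0.096, adjusted p = 4.47e-08). Pdgfra, the receptor for Pdgfa, rose 1.83-fold and 1.68-fold. The part of these marker changes in the Vhl differences of the Id and BMP genes was not tested. In the untreated experiment library A differed widely from its 2 partners in both genotypes. Sox10 had 525.5 CPM in the A library of control cells while its partners had 87.8 and 87.5 CPM, and 326 CPM in that of Vhl cells while the others had 15.3 and 15.98 CPM. Vegfa, a hypoxia response gene, was 38.7 CPM in Vhl A, 407 and 642 CPM in Vhl B and C, and 6.11 to 8.27 CPM in the control libraries. Common dispersion in edgeR, a squared measure of the spread within groups, was 0.144 untreated and 0.0161 in the drug experiment, so differences of the same size were resolved far less well without drug.

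Per kilobase of the longest coding transcript, Id3 was the most abundant of the 9 genes in all 6 groups, at 192.5 ± 6.96 CPM per kb in control cells in DMSO. Bmp7 came next there at 44.5 ± 1.08 CPM per kb, then Id2 at 16.8 ± 0.859 and Id1 at 12.47 ± 1.20 CPM per kb, with no overlap between neighbours. Id4 at 0.976 ± 0.0490 and Smad6 at 0.910 ± 0.0895 CPM per kb overlapped, and Smad7 at 0.743 ± 0.0135 and Bmpr1a at 0.233 ± 0.0855 CPM per kb followed. With AZD8330, Id2 stood above Bmp7 in both genotypes, at 42.5 ± 2.25 against 16.8 ± 0.807 CPM per kb in control cells and 62.5 ± 1.3 against 23.7 ± 1.07 CPM per kb in Vhl cells. Id4 reached 11.3 ± 0.581 CPM per kb in drug-treated control cells, just above Id1 at 9.61 ± 1.10 CPM per kb. In drug-treated Vhl cells that order was the opposite, with Id1 at 16.6 ± 0.596 and Id4 at 12.8 ± 0.734 CPM per kb. In untreated control cells Id4 and Id1 overlapped, at 12.6 ± 2.46 and 11.4 ± 1.69 CPM per kb. Which transcripts were expressed was not examined, so close orders between genes rest on the lengths used.

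**Figure D1:**
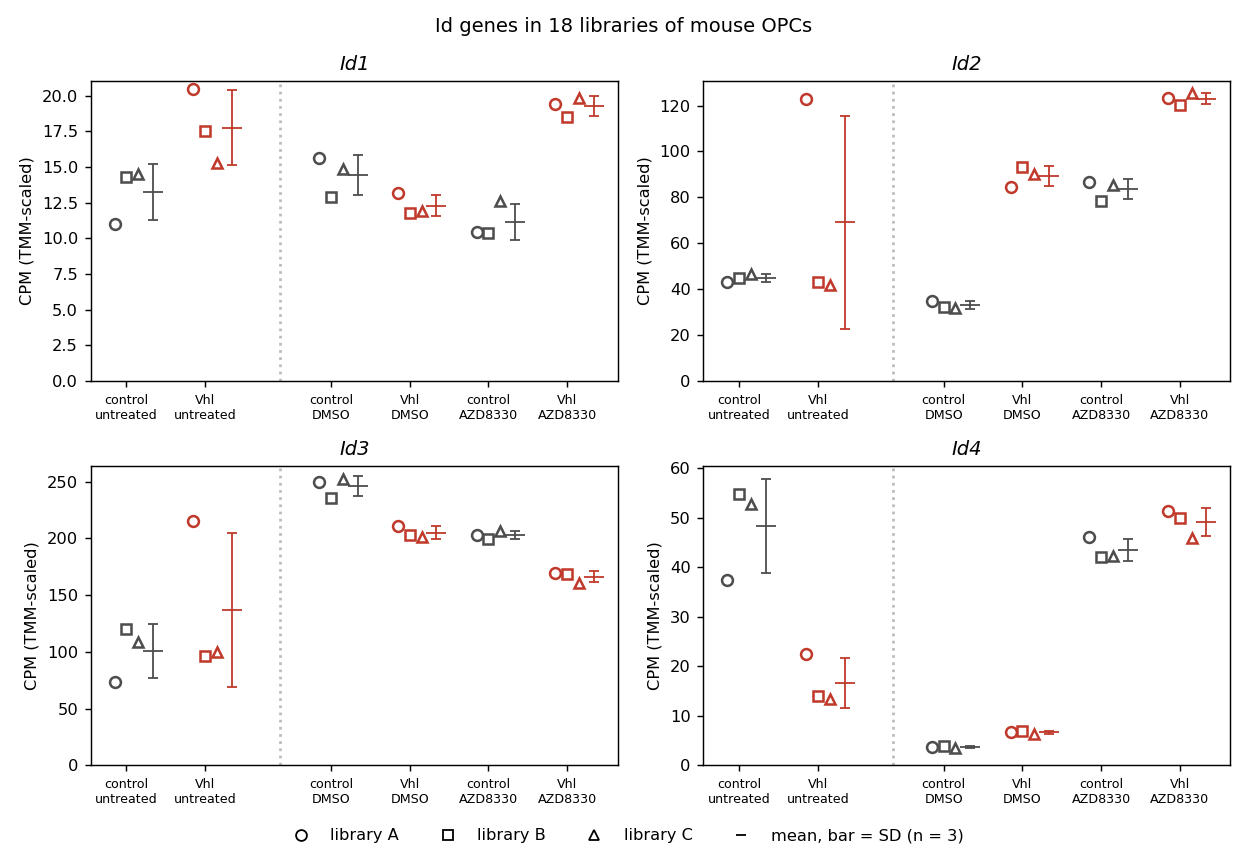
CPM (TMM-scaled) of Id1, Id2, Id3 and Id4 in the 18 libraries, with circles, squares and triangles for libraries A, B and C and bars for the mean ± SD of each group; the dotted line separates the untreated experiment from the drug experiment. Untreated Vhl library A sits apart at 123 CPM for Id2 and 215 CPM for Id3, while the libraries of the drug experiment lie close together.

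8 of the 9 genes passed the filter of a mean of at least 1 CPM in both tables; Bmp4 did not. A rise or fall below means an adjusted p under 0.05 in edgeR's quasi-likelihood test, adjusted with the Benjamini-Hochberg method over all tested rows. In DMSO, 4 of the 8 rose and 2 fell in Vhl against control cells, where 32.3% of all rows changed (13.8% rose and 18.5% fell). Of all changed rows in that comparison 42.6% rose, and 56.8% rose when library totals replaced TMM scaling. With AZD8330, 3 rose and 1 fell in Vhl against control cells, where 30.0% of all rows changed (16.0% rose and 14.0% fell). The drug itself raised 3 and lowered 3 of the 8 in control cells, where 60.8% of all rows changed (29.1% rose and 31.7% fell), and raised 5 and lowered 2 in Vhl cells, where 51.4% changed (25.8% rose and 25.6% fell). The drug effect differed between the genotypes for 3 of the 8, upward for 1 and downward for 2, against 12.8% of all rows (7.81% upward and 4.96% downward). Of the rows with such a difference 61.2% were shifted upward in Vhl cells, and 43.8% when library totals were used. Each drug comparison shares libraries with each genotype comparison of the drug experiment, so those values are given side by side and are not independent of each other. Bulk RNA cannot tell fewer cells of a type from less RNA per cell.

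**Figure D2:**
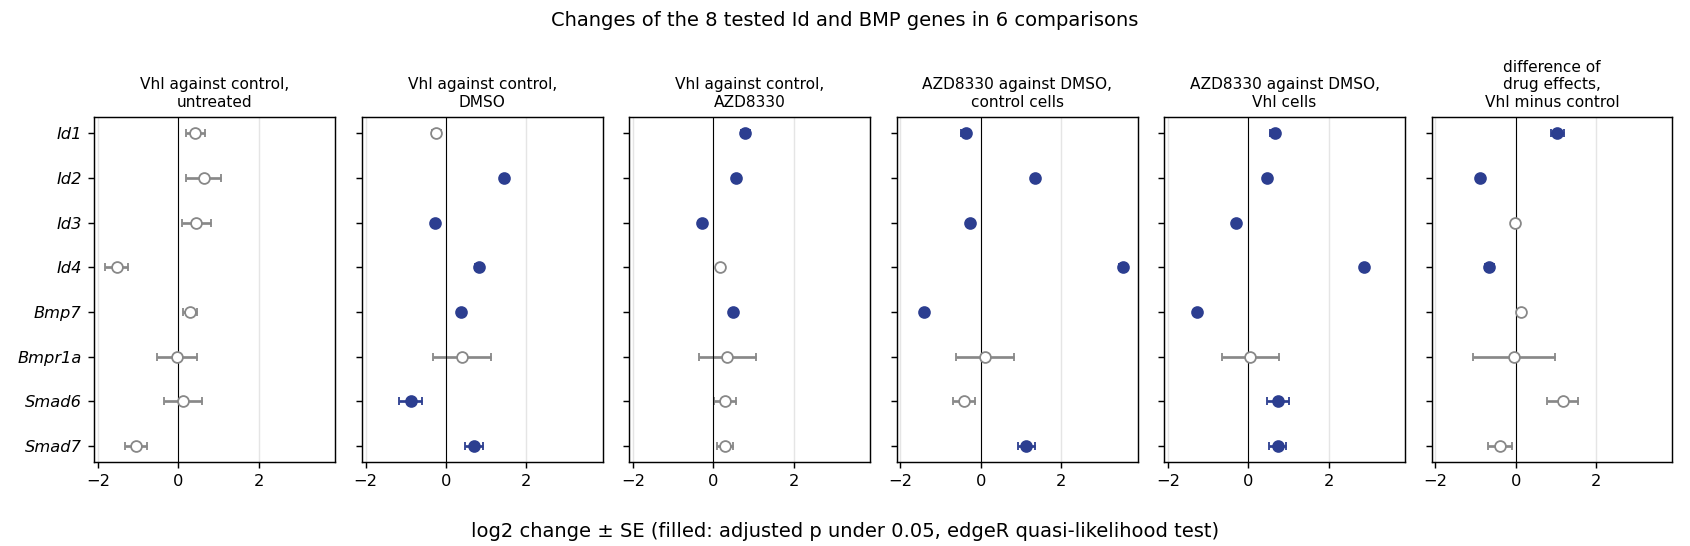
Log2 change ± SE of the 8 tested Id and BMP genes in the 6 comparisons, filled where the adjusted p is under 0.05 in edgeR's quasi-likelihood test. Id4 lies farthest to the right in both drug comparisons, at 3.53 and 2.88, and no gene is filled in the untreated comparison.

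Bmp7, the only one of the 2 ligands at a level that could be tested, fell with the MEK inhibitor in both genotypes and was higher in Vhl than in control cells in both media. Bmp7 signals through type I and type II BMP receptors in brain and kidney development. It was not the only ligand gene with many counts: Gdf11, a relative that signals mainly through activin receptors, was at 112.5 to 187.5 CPM over the 18 libraries and passed the test in none of the 6 comparisons. Bmp7 was at 159, 166 and 165 CPM in control cells in DMSO and 61.9, 58.7 and 64.6 CPM with AZD8330. In Vhl cells it was at 212, 210.4 and 207 CPM in DMSO and 89.6, 89.1 and 82.6 CPM with the drug. The 4 groups did not overlap, and the order was Vhl DMSO, control DMSO, Vhl AZD8330, control AZD8330. The drug took Bmp7 to 0.378 of its DMSO level in control cells (log2 change -1.40 ± 0.0445, adjusted p = 2.56e-11) and to 0.415 in Vhl cells (log2 change -1.27 ± 0.0434, adjusted p = 8.18e-11). By size, the fall in control cells ranked 740th among 4271 falls. Vhl cells exceeded control cells 1.29-fold in DMSO (log2 change 0.36 ± 0.0418, adjusted p = 2.89e-05) and 1.41-fold with AZD8330 (log2 change 0.50 ± 0.0454, adjusted p = 3.1e-06). The drug effects of the 2 genotypes differed by 0.13 ± 0.0617 on the log2 scale, which did not pass the test (adjusted p = 0.192). Untreated, Bmp7 averaged 126 ± 7.39 CPM in control cells and 152 ± 23.8 CPM with the Vhl edit, and the libraries overlapped.

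Bmp4, the ligand most used in culture to turn OPCs toward astrocytes, was at or near 0. It had estimated counts in 5 of the 18 libraries, 5.61 in untreated control A, 5.66 and 8.93 in untreated Vhl A and B, 5 in Vhl DMSO B and 1 in Vhl AZD8330 A, and none in the other 13. A count of 0 allows up to 3 counts, between 0.142 and 0.242 CPM depending on the library, counting error only. No comparison was made for it.

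Bmpr1a, a type I receptor that binds Bmp4, was low and uneven. In the drug experiment it ranged from 0.302 to 3.21 CPM, both extremes in Vhl libraries in DMSO, and the groups overlapped throughout. Untreated, it averaged 5.44 ± 1.49 CPM in control cells and 5.32 ± 3.59 CPM with the Vhl edit. It passed the test in none of the 6 comparisons. Its SE was 0.506 to 1.01 on the log2 scale, so that even differences well above that size could go undetected in these libraries. No direction can be read for it, since its sign changed with the library left out in all 6 comparisons.

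Of the inhibitory Smads, Smad7 was higher with AZD8330 in both genotypes. Smad7 draws ubiquitin ligases to activated receptors and acts on both the BMP and the TGF-beta branch. It was at 3.11, 3.21 and 3.21 CPM in control cells in DMSO and 6.08, 6.98 and 7.89 CPM with the drug, a 2.19-fold rise with no overlap (log2 change 1.13 ± 0.214, adjusted p = 0.000479). In Vhl cells it was at 6.37, 4.77 and 4.30 CPM in DMSO and 9.45, 6.47 and 9.75 CPM with the drug, a 1.66-fold rise (log2 change 0.73 ± 0.208, adjusted p = 0.0100). That call was lost without Vhl AZD8330 library A (adjusted p = 0.055) or C (adjusted p = 0.0553). Vhl cells in DMSO lay 1.62-fold above control cells (log2 change 0.69 ± 0.216, adjusted p = 0.0269). This call was lost without control DMSO A (adjusted p = 0.0728), B (0.0635) or C (0.0587) or without Vhl DMSO A (0.112). With AZD8330 the genotypes overlapped (log2 difference 0.29 ± 0.205, adjusted p = 0.33).

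Smad6, which prefers the BMP branch and blocks receptor Smads, stayed below 3 CPM in every library. In DMSO it was at 2.92, 2.41 and 2.79 CPM in control and 1.12, 1.84 and 1.43 CPM in Vhl cells, with no overlap (log2 change -0.88 ± 0.279, adjusted p = 0.0291). The call was lost without control DMSO A (adjusted p = 0.0834) or C (0.0658) or without Vhl DMSO A (0.1) or C (0.0745). With AZD8330 it was at 2.15, 2.22 and 1.65 CPM in control and 2.69, 2.68 and 1.96 CPM in Vhl cells, which overlapped. Against DMSO the drug raised it in Vhl cells (log2 change 0.73 ± 0.280, adjusted p = 0.0435), a call lost without Vhl AZD8330 A (adjusted p = 0.143) or B (0.143) or without Vhl DMSO A (0.143) or C (0.0949). In control cells its lower level with the drug did not pass (-0.43 ± 0.271, adjusted p = 0.196). The 2 drug effects differed by 1.16 ± 0.390 on the log2 scale, which did not pass the test either (adjusted p = 0.0754).

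**Figure D3:**
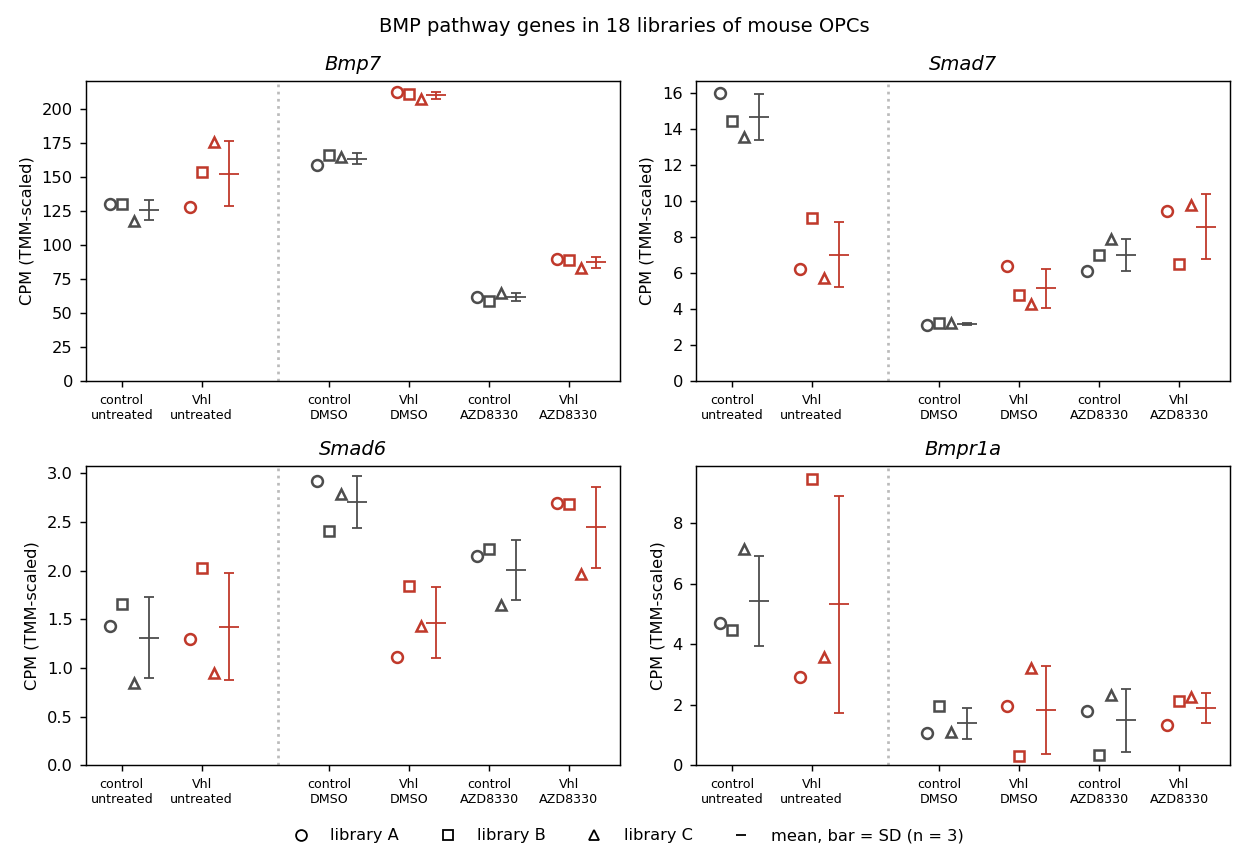
CPM (TMM-scaled) of Bmp7, Smad7, Smad6 and Bmpr1a in the 18 libraries, with symbols for libraries A to C and bars for the mean ± SD; each panel has its own vertical axis starting at 0, and the dotted line separates the experiments. The 4 groups of the drug experiment do not overlap for Bmp7, whereas those for Bmpr1a overlap throughout.

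Among the Id genes, Id4 had the greatest drug response of the 8 tested genes. Id4 and Id2 are the Id proteins best known for binding Olig proteins in this lineage. Id4 was at 3.75, 3.95 and 3.57 CPM in control cells in DMSO and 46.1, 42.2 and 42.3 CPM with AZD8330, an 11.6-fold rise (log2 change 3.53 ± 0.0889, adjusted p = 3.8e-12). In Vhl cells it was at 6.69, 7.02 and 6.34 CPM in DMSO and 51.4, 49.96 and 46.0 CPM with the drug, a 7.34-fold rise (log2 change 2.88 ± 0.0836, adjusted p = 1.79e-11). The DMSO and drug libraries were far apart in both genotypes. The rise ranked 105th by size among 3912 rises in control cells and 110th among 3479 in Vhl cells. In DMSO the Vhl cells lay 1.78-fold above control cells (log2 change 0.83 ± 0.0992, adjusted p = 3.85e-05). With the drug the genotypes overlapped and differed by 0.17 ± 0.0717 (adjusted p = 0.0894), and the drug effect was smaller in Vhl cells by 0.66 ± 0.122 on the log2 scale (interaction -0.66, adjusted p = 0.00388).

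Id2 was higher both in Vhl cells and with the drug, and the drug added less in Vhl cells. Its libraries were at 34.9, 32.2 and 31.8 CPM in control cells in DMSO and 84.7, 93.3 and 90.2 CPM in Vhl cells in DMSO. With AZD8330 they were at 86.9, 78.6 and 85.4 CPM in control and 123, 120 and 125 CPM in Vhl cells. Vhl cells in DMSO and control cells with the drug thus overlapped, below the Vhl cells with the drug and above the control cells in DMSO. The genotype difference was 2.71-fold in DMSO (log2 change 1.44 ± 0.0569, adjusted p = 1.99e-09) and 1.47-fold with the drug (log2 change 0.56 ± 0.0525, adjusted p = 4.11e-06). In DMSO it ranked 269th by size among 1851 rises. The drug effect was 2.53-fold in control cells (log2 change 1.34 ± 0.0568, adjusted p = 3.59e-10) and 1.38-fold in Vhl cells (log2 change 0.46 ± 0.0525, adjusted p = 8.36e-06). The 2 drug effects differed by -0.88 ± 0.0772 on the log2 scale (adjusted p = 1.65e-05), ranked 105th by size among 667 differences of that sign.

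Id3, the most abundant of the 4, moved the other way, and by little. It was at 249.8, 236 and 252 CPM in control cells in DMSO and 203, 199 and 206 CPM with AZD8330. In Vhl cells it was at 211, 203 and 201 CPM in DMSO and 169, 169 and 161 CPM with the drug. Control DMSO libraries were the highest and drug-treated Vhl libraries the lowest, with the other two groups overlapping between them. Vhl cells were at 0.834 of control cells in DMSO (log2 change -0.26 ± 0.0359, adjusted p = 0.000117) and at 0.821 with the drug (log2 change -0.29 ± 0.0363, adjusted p = 5.89e-05). The drug took it to 0.825 of the DMSO level in control cells (log2 change -0.28 ± 0.0358, adjusted p = 1.77e-05) and to 0.811 in Vhl cells (log2 change -0.30 ± 0.0364, adjusted p = 1.38e-05). The 2 drug effects differed by -0.02 ± 0.0510 (adjusted p = 0.827).

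Id1 responded to the drug in opposite directions in the 2 genotypes. It was at 15.6, 12.9 and 14.9 CPM in control cells in DMSO and 10.5, 10.4 and 12.6 CPM with AZD8330, a fall by 0.38 ± 0.115 on the log2 scale (adjusted p = 0.0125). That call was lost without control AZD8330 B (adjusted p = 0.077) or control DMSO A (adjusted p = 0.0525). In Vhl cells it was at 13.1, 11.8 and 11.9 CPM in DMSO and 19.4, 18.5 and 19.9 CPM with the drug, a 1.57-fold rise (log2 change 0.65 ± 0.114, adjusted p = 0.000354). The drug-treated Vhl libraries were the highest of the experiment and overlapped no other group. The genotypes overlapped in DMSO (log2 difference -0.24 ± 0.115, adjusted p = 0.142), and with the drug Vhl cells lay 1.73-fold above control cells (log2 change 0.79 ± 0.114, adjusted p = 0.000167). The drug effects differed by 1.03 ± 0.162 on the log2 scale (adjusted p = 0.00137), which ranked 90th by size among 1051 differences of that sign, and this held without each library in turn.

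**Figure D4:**
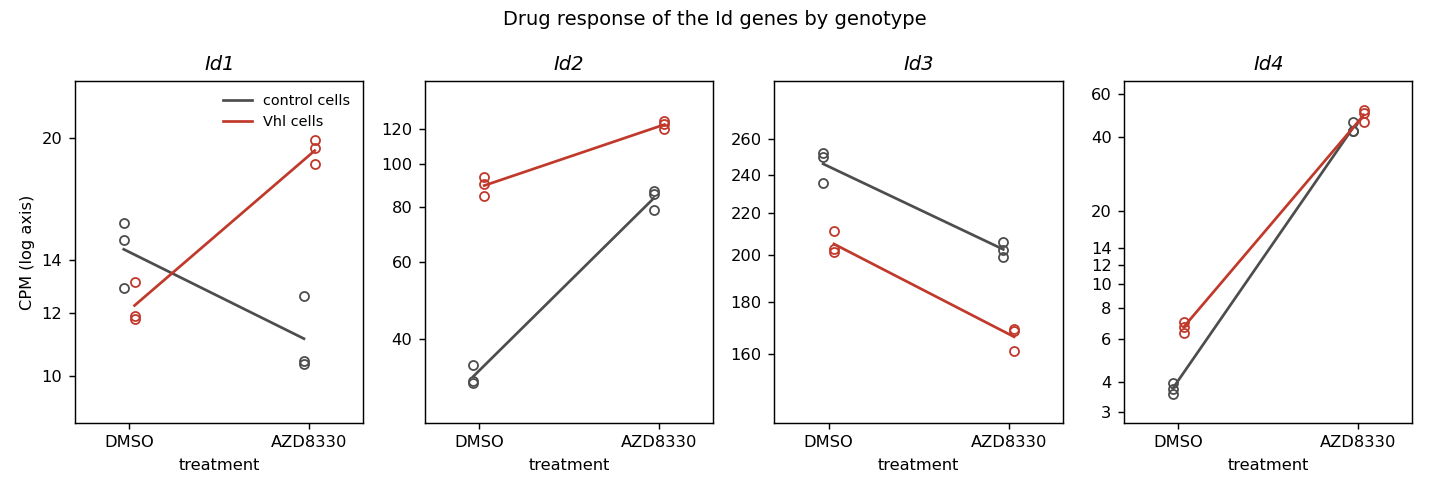
CPM of Id1, Id2, Id3 and Id4 in DMSO and AZD8330 on log axes that differ in range between panels, with open circles for the 12 libraries of the drug experiment and lines joining group means (grey control, red Vhl). The lines cross for Id1, come closer together for Id2 and Id4, and run close to parallel for Id3.

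Without drug the 4 Id genes gave a different picture, with far wider spread. Id4 was at 37.5, 54.8 and 52.9 CPM in control and 22.6, 13.9 and 13.4 CPM in Vhl cells (log2 difference -1.54 ± 0.282). Smad7 was at 16.02, 14.5 and 13.5 CPM in control and 6.24, 9.06 and 5.71 CPM in Vhl cells (log2 difference -1.07 ± 0.272). Both were lower in every Vhl library, as were 7.90% of all rows. Neither passed the edgeR test (adjusted p = 0.148 and 0.278), in which 0 of the 8 genes and 0.0147% of all rows changed, all of them upward (0% fell). At an unadjusted p under 0.05 there were 2 of the 8, Id4 and Smad7, against 9.34% of all rows. DESeq2 also called these 2 genes (adjusted p = 0.00013 for Id4 and 0.0237 for Smad7), and limma on log2(CPM + 1) called 0 of the 8. Without untreated Vhl library A, edgeR called Id4 (log2 change -1.82, adjusted p = 0.0162), and without both A libraries it did so too (-1.98, adjusted p = 0.0124). Id2 was at 43.0, 45.05 and 46.7 CPM in control and 123, 43.0 and 41.6 CPM in Vhl cells, so that its higher mean in Vhl cells rested on library A. Id3 was at 73.6, 120 and 109 CPM in control and 215, 96.0 and 100.3 CPM in Vhl cells, likewise with A alone above the control range. Without that library the Id2 and Id3 log2 differences were -0.09 and -0.04. Id1 was at 11.01, 14.3 and 14.5 CPM in control and 20.5, 17.5 and 15.3 CPM in Vhl cells, higher in all 3, which 7.91% of all rows also were, and the difference did not pass (log2 difference 0.42 ± 0.235, adjusted p = 0.653). The Vhl libraries thus lay below control for Id4 and Smad7 without drug and above control in DMSO, and whether the experiments differ was not tested, because their tables were fitted separately. The untreated values rest on the column headings, and the authors' deposited mean column headed VHL equals the mean of control B, control C and Vhl A, not of the 3 Vhl libraries.

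Markers of other neural cells moved with the drug. In control cells 7 of 8 astrocyte markers, 3 of 4 tested oligodendrocyte markers of 6, and 5 of 5 tested neuron markers of 6 rose with AZD8330, against 29.1% of all rows. The summed astrocyte markers were at 1345 to 1375 CPM in control cells in DMSO and 2573 to 2677 CPM with the drug, and at 1625 to 1671 and 2413 to 2496 CPM in Vhl cells. Gfap, one of these astrocyte markers, was at 3.55 to 4.57 CPM in control cells in DMSO and 124 to 139 CPM with the drug. The summed oligodendrocyte markers went from 141 to 146 CPM to 438 to 472 CPM in control cells and from 163 to 178 CPM to 369 to 401 CPM in Vhl cells, with Mog at 0 in all but 1 library of the drug experiment. The summed neuron markers were at 166 to 174 CPM in control and 360 to 370 CPM in Vhl cells in DMSO, and at 376 to 386 and 564 to 590 CPM with the drug. Microglia markers summed to at most 1.44 CPM and endothelial markers to at most 5.85 CPM in the drug experiment, with Cldn5 at 0. Dusp6, a direct readout of ERK activity, was at 365 to 424 CPM in DMSO and 20.5 to 34.6 CPM with the drug. In the untreated experiment Dusp6 was at 41.3 to 73.95 CPM in control and 105 to 224 CPM in Vhl cells, below every DMSO library. Untreated and DMSO cells thus differed in this readout, and the cause was not tested. The part of these marker changes in the changes of the Id and BMP genes was not tested.

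The rest of the pathway was followed through 8 lists, of which 52 genes were tested in the drug experiment and 51 untreated. With the drug in control cells 24 of the 52 rose and 11 fell, where 29.1% of all rows rose and 31.7% fell, with a median log2 change of 0.35 against -0.01 for all rows. In Vhl cells 27 rose and 8 fell, where 25.8% and 25.6% of all rows did, with a median of 0.25 against 0.03. Among other ligands 4 of 5 rose in control cells: Bmp6, which was at 0, 0.401 and 0.214 CPM in DMSO and 4.63, 2.74 and 2.51 CPM with the drug (log2 change 3.97 ± 0.763, adjusted p = 0.000551), Bmp8a, Bmp3 and Gdf6. In the drug experiment these 4 genes stayed at 6.15 CPM or less in every library, while untreated Bmp3 reached 27.2 CPM in Vhl cells. The Bmp6 DMSO libraries of control cells held 0, 6 and 3 counts, so the size of its rise is loose: it was 1.82 on the log2(CPM + 1) scale with limma and 4.90 without control DMSO B. That of Bmp8a was 2.74, and 1.42 and 5.10 under the same settings. The same 4 rose in Vhl cells, where Bmp8a, Bmp3 and Gdf6 each lost the call without single libraries (adjusted p up to 0.071, 0.107 and 0.164).

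Of 8 other receptors and co-receptors tested, 4 rose with the drug in control cells and none fell, against 29.1% and 31.7% of all rows. Neo1, neogenin, the receptor for the BMP co-receptors of the repulsive guidance family, went from 233 ± 4.98 to 635 ± 4.08 CPM (log2 change 1.45 ± 0.0323, adjusted p = 1.5e-12), and Rgma, one of that family, from 56.7 ± 3.12 to 189 ± 13 CPM. Bmpr1b, a type I receptor, went from 3.26 ± 2.38 to 13.3 ± 4.37 CPM and Bmpr2, the type II receptor, from 311 ± 13.3 to 398 ± 11.2 CPM (log2 changes 2.03 and 0.36). The Neo1 rise was smaller in Vhl cells by 0.41 ± 0.0453 on the log2 scale (interaction -0.41, adjusted p = 1e-04). In DMSO 1 receptor fell in Vhl cells, Acvr1, whose libraries overlapped and whose call was lost without control DMSO A (adjusted p = 0.0986) or B (0.135) or Vhl DMSO B (0.143) or C (0.134). Of the 4 receptor and common Smads Smad1 rose with the drug in control cells (2.24 ± 0.824 to 4.37 ± 0.413 CPM), and Smad9, another BMP Smad, was lower (3.47 ± 0.493 to 1.43 ± 0.790 CPM, adjusted p = 0.0264), a call lost without control AZD8330 B (0.0845) or control DMSO B (0.0736).

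Among extracellular antagonists and modulators 5 of 9 fell in Vhl cells in DMSO and none rose, against 18.5% and 13.8% of all rows: Twsg1, a BMP-binding carrier of chordin (99.9 ± 2.23 to 75.1 ± 4.69 CPM), Bmp1, the protease that cuts chordin (298 ± 12.1 to 241 ± 6.5 CPM), Nbl1, a secreted antagonist (45.8 ± 1.25 to 36.7 ± 1.51 CPM), Fstl1, a follistatin-like protein (198 ± 9.80 to 164 ± 12.9 CPM), and Chrdl1, a chordin-like antagonist (9.66 ± 0.676 to 6.05 ± 0.776 CPM). When both genotypes had the drug, Bmp1, Twsg1, Nbl1 and Chrdl1 were again lower in Vhl cells (4 of 9, against 14.0% of all rows), and Nog, Fst and Bmper were higher (3 of 9, against 16.0%). The Chrdl1 call was lost when only the 2 groups compared were fitted (adjusted p = 0.0549). Dependence on single libraries was not examined for Nog, Fst and Bmper here or for Chrdl1 in DMSO. Nor was it examined for Chrdl1 and Fst with the drug in control cells. The list holds antagonists and Bmp1, which releases BMPs, so its count has no single sign for signalling. The drug itself raised 5 of 9 in control cells, among them Nbl1 (2.78-fold, adjusted p = 1.47e-11) and Bmper, which binds BMPs outside the cell (2.34-fold, adjusted p = 6.26e-09), and Chrdl1 and Fst fell.

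Of 8 further intracellular brakes 5 rose and 2 fell with the drug in control cells, against the same 29.1% and 31.7%. Tob2 and Tob1, which bind Smads, rose 1.78-fold and 1.47-fold, Skil, a Smad co-repressor, rose 1.59-fold, and Bambi, a decoy receptor, went from 15.9 ± 1.70 to 8.05 ± 0.641 CPM (log2 change -0.98 ± 0.154, adjusted p = 0.000105). Bambi was also lower in Vhl cells in DMSO (10.3 ± 1.21 CPM, log2 change -0.63 ± 0.152, adjusted p = 0.00672). Among 5 other BMP response genes tested, Msx1, a homeobox target, rose 2.34-fold and Hey1 1.48-fold with the drug in control cells, and no gene of this list fell. In Vhl cells in DMSO Hey1 rose 1.27-fold and Dlx2 rose from 0.698 ± 0.139 to 2.21 ± 0.341 CPM (adjusted p = 0.0132), while Atoh8, at 1.69 ± 0.575 and 0.799 ± 0.307 CPM, lost its lower call without control DMSO A (adjusted p = 0.087) or C (0.167) or Vhl DMSO A (0.148) or C (0.095). Dlx5, on the same list, had a count in no library.

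The bHLH factors that Id proteins bind did not share a direction. With the drug in control cells Tcf12 (291 ± 6.62 to 545 ± 24.5 CPM) and Tcf4 (234 ± 15.1 to 309 ± 13.2 CPM) rose, and Tcf3 (186 ± 17.8 to 119 ± 8.81 CPM), Olig2 (1326 ± 43.6 to 1133 ± 9.10 CPM) and Olig1 fell. In DMSO Olig2 and Tcf4 rose in Vhl cells, by 0.17 ± 0.0286 and 0.22 ± 0.0524 on the log2 scale. Of 7 tested genes of the TGF-beta and activin branch, Inhbb, an activin subunit, rose with the drug in control cells (51.3 ± 3 to 96.97 ± 4.6 CPM), and Tgfbr2, the type II TGF-beta receptor (11.9 ± 1.5 to 4.44 ± 0.670 CPM), Smad3 and Smad2 fell. Untreated, edgeR called 0 of the 51 genes, against 0.0147% of all rows, and DESeq2 and limma also called 0. At an unadjusted p under 0.05 in edgeR there were 5 of the 51, against 9.34% of all rows.

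**Figure D5:**
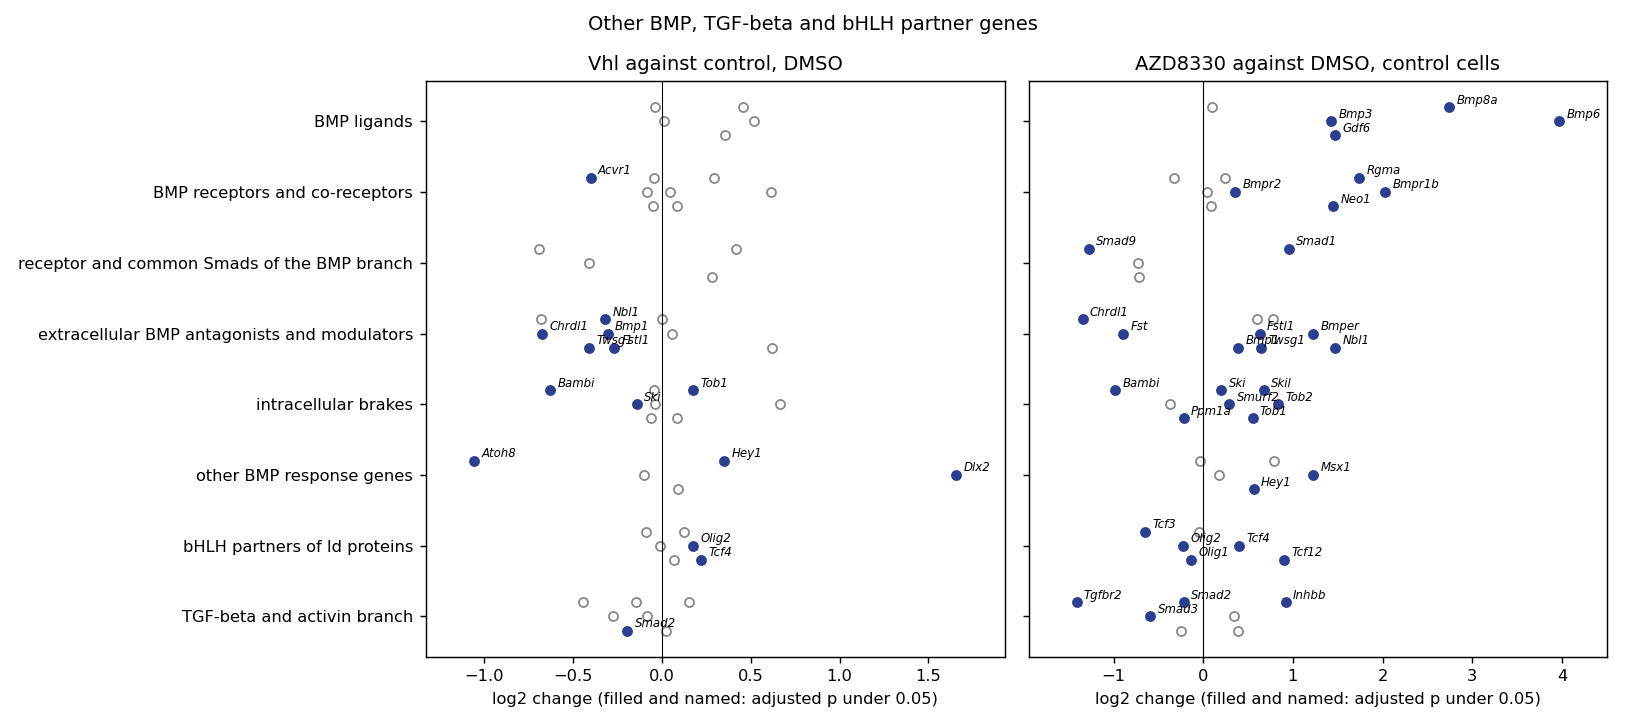
Log2 changes of the genes of 8 pathway lists, each dot 1 gene, for Vhl against control cells in DMSO (left) and AZD8330 against DMSO in control cells (right), filled and named where the adjusted p is under 0.05 in edgeR. On the right 24 genes lie filled above 0 and 11 below, with Bmp6, which had 0 to 6 counts per DMSO library, at 3.97; on the left 5 extracellular genes lie filled below 0.

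Genes with the pattern most like each Id gene were found as the smallest root mean square difference between group means of log2(CPM + 1), centred within each table, over the 6 groups among 9593 genes whose mean reached 5 CPM in each table. For Id4, whose own root mean square was 1.3, these were Shisa9 (0.195), Sv2c (0.210) and Gpr17 (0.213). Gpr17, a receptor of progenitors committed to differentiation, was at 56.0 ± 1.27 CPM in control cells in DMSO and 508 ± 5.46 CPM with the drug, and at 59.5 ± 3.29 and 526 ± 13.9 CPM in Vhl cells. In untreated control cells Gpr17 was at 2978, 766 and 757 CPM, with library A far above the others, whereas Id4 was lowest in that library. Shisa9 was at 18.2 ± 0.607 CPM in control DMSO, 32.1 ± 3 CPM in Vhl DMSO, 174 ± 2.68 CPM in control AZD8330 and 189 ± 5.39 CPM in Vhl AZD8330, the same order as Id4. For Id2 the nearest were Narf (0.111), Serpini1 (0.123) and Gm33869 (0.128), against its own 0.581. Narf was at 41.8 ± 5.07, 104 ± 8.10, 99.0 ± 5.09 and 170 ± 14.5 CPM in control DMSO, Vhl DMSO, control AZD8330 and Vhl AZD8330. In untreated Vhl cells Narf was at 88.8, 192 and 189 CPM, with library A low, whereas Id2 had library A alone high there. The untreated group means of these genes were thus alike while their libraries were not. For Id1 the nearest were Mknk1 (0.0612), Dcun1d4 (0.101) and Zfp12 (0.102). Dcun1d4 was at 2.59, 22.6 and 1.72 CPM in drug-treated Vhl cells, where library B alone was high. For Id3 they were Cox7b (0.0392), Cops2 (0.0420) and Gtf2ird1 (0.0437). Cox7b was at 158.5, 45.6 and 40.1 CPM in untreated Vhl cells, with library A alone high. The patterns of both Id genes were themselves shallow (0.256 for Id1 and 0.194 for Id3). These are descriptions over 6 group means.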

How the data were processed

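Total RNA of 18 libraries of mouse OPCs was sequenced; per the labels' protocols RNA was extracted with TRIzol. The authors deposited 2 tables. Per the submitters' processing notes Salmon 0.14.1 and mm10 were used; no annotation, library kit or strandedness is named there. Although the file names say TPM, the deposited values are estimated counts: column totals differ between libraries, and 57.7% and 58.8% of values above 0 are whole within 0.001. They were rounded and tested with edgeR's quasi-likelihood test (TMM scaling, rows with a mean of at least 1 CPM, Benjamini-Hochberg over 13569 untreated and 13460 drug rows, threshold 0.05). The tables were fitted separately, the 4 drug groups in 1 fit. SE is the log2 change divided by the root of F. Promoter letters overlapping a GENCODE M21 exon are not printed. Positions are 1-based. Scripts were tested on simulated data.

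The 9 genes and all lists were chosen with earlier results of these data known. Named list genes are up to 4 per list and comparison with the smallest p among changed genes; Gdf11, Chrdl1, Nog, Fst and Pdgfra, with Bmper in Vhl against control cells under AZD8330 and Olig1, were named after their values were seen. The pathway lists are BMP ligands, receptors and co-receptors, receptor and common Smads, extracellular antagonists and modulators, intracellular brakes, other response genes, bHLH partners, and the TGF-beta and activin branch. Library letters were not taken to pair samples, so the main fits have no block. Alternatives were DESeq2, limma with pseudocounts of 1 and 0.1, library totals, other filters, a replicate block, fits of only the groups compared, each library left out, and, chosen after seeing the data, both untreated A libraries left out. Single genes beside the 9 were followed through these only where picked by smallest p. Fits ran in R 4.3.3 with edgeR 4.0.16, DESeq2 1.42.0 and limma 3.58.1, and figures in matplotlib 3.10.9. The 2 mean columns of the untreated table entered no comparison.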

Additional observations from a re-analysis of the deposited data

Results flagged for a closer look

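The drug effect differed between Vhl and control cells for 3 of the 8 tested Id and BMP genes and for 4 of the 52 tested list genes. The test was the interaction contrast of edgeR's quasi-likelihood test, in which 12.8% of all rows differed. The difference, Vhl minus control on the log2 scale, was 1.03 for Id1, -0.88 for Id2 and -0.66 for Id4. It was -0.41 for Neo1, 0.37 for Fstl1, -0.23 for Bmp1 and -0.22 for Hey1. The Fstl1 call was lost without control AZD8330 B (adjusted p = 0.0652) or Vhl AZD8330 B (adjusted p = 0.0697). The Hey1 call was lost without any of 6 libraries (control AZD8330 A, all 3 of control DMSO, and Vhl DMSO B and C), with adjusted p from 0.0587 to 0.11.

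Id4 and Smad7 lay below control in all untreated Vhl libraries (log2 change -1.54 and -1.07) and above control in all Vhl libraries in DMSO (0.83 and 0.69). Dusp6, a direct readout of ERK activity, was at 41.3 to 224 CPM in the untreated libraries and 365 to 424 CPM in those in DMSO. The difference between the experiments was not tested.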

How the results depend on the processing

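In the drug experiment the calls of Id2, Id3, Id4 and Bmp7, in each contrast where edgeR called them, and the Id1 calls in Vhl against control cells with AZD8330, for the drug in Vhl cells and for the difference of drug effects held under every alternative run, and the counts of changed rows and of the 8 genes stayed within 1.5 times. The Smad7 rise with the drug in control cells held too, while its other changes, those of Smad6 and the Id1 fall depended on single libraries (given beside them). Smad6 and Smad7 in DMSO also missed the threshold with every row tested (adjusted p = 0.145 and 0.0937), and Smad6 there (0.0693) and the Id1 fall (0.0526) did so with only the groups compared. The Smad6 rise in Vhl cells did so with DESeq2 (0.078), every row (0.235) and only the groups compared (0.0992). The causes were not tested.

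Untreated, the number of changed rows was 2, against 606 without both A libraries, 355 with DESeq2, 143 with every row, 4 and 4 with limma at both pseudocounts and 0 to 439 with a library left out (439 without Vhl A, 0 without control A, B or C or Vhl B). Of the 8 genes 0 were called, against 1 without both A libraries (Id4), 2 with DESeq2 and 1 with every row (Id4, adjusted p = 0.0234), and 0 to 1 with a library left out. The untreated log2 differences of Id2 and Id3 turned to -0.12 and -0.22 without both A libraries; with a library left out Id2 ranged from -0.087 to 0.88, Id3 from -0.040 to 0.64 and Smad6 from -0.22 to 0.33. Bmpr1a turned to 0.17 untreated without both A libraries, -0.066 in DMSO with limma at 0.1, and, for the drug in control cells, -0.20 and -0.026 with limma at 0.1 and 1. Its interaction turned to 0.69 and 0.20 with these. With a library left out Bmpr1a ranged from -0.74 to 0.26 untreated, -0.32 to 0.91 in DMSO, -0.17 to 0.75 with AZD8330, -0.32 to 0.60 for the drug in control cells, -0.47 to 0.76 in Vhl cells and -0.61 to 0.67 in the interaction, and Id3 in the interaction from -0.12 to 0.0069.

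Library letters are shared between groups. Correlations of same-letter deviations lay between -0.0809 and 0.0203 in 3 untreated pairs and between -0.0438 and 0.0532 in 18 pairs of the drug experiment, and 0 of 6 and 6 of 12 libraries correlated best with their own letter, so the letters were not taken to pair samples. With a replicate block the number of changed untreated rows was 0 by edgeR, the Bmpr1a drug effect in control cells was -0.15 and its interaction 0.41, and the Smad6 rise in Vhl cells had an adjusted p of 0.0603.

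Bmp4, Bmpr1a and Smad6 lay below 4 CPM in every library of the drug experiment, which limits what can be read for them. In Vhl against control cells in DMSO the SE on the log2 scale was 0.722 for Bmpr1a and 0.279 for Smad6. The cause of the wider spread of Bmpr1a was not tested.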

Other observations

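The untreated table holds 2 mean columns of the authors. The authors' deposited column for the control equals the mean of control libraries A, B and C in 100% of rows, within 0.001. The authors' deposited column headed VHL equals, in 100% of rows, the mean of control B, control C and Vhl A, and not that of the 3 Vhl libraries. Both were left out of every comparison. Whether that column or the heading of a library is in error was not tested, and every untreated Vhl value here rests on the library headings. Vegfa was at 6.11 to 8.27 CPM in the untreated libraries headed control and at 38.7 to 642 CPM in those headed Vhl.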
